A study of Mus musculus with 15 samples.

Results

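The endoplasmic reticulum stress and amino acid response genes were taken as 34 named members of 48795 genes in the count tables, taken from a list of symbols matched to the tables through the GENCODE M21 annotation. They comprised 3 stress sensors, 4 transcription factors, 11 chaperones and cochaperones, 3 disulfide isomerases, 7 genes of degradation and translocation, and 6 genes of the amino acid and stress response. All 34 matched a row and passed the filter on low counts, with 14991 genes tested in all. They were measured by sequencing of polyA RNA from the ears of female mice aged 5 weeks, in a model in which phorbol 12-myristate 13-acetate (PMA), an activator of protein kinase C that irritates skin, inflames the ear. There were 5 control libraries, 4 libraries labelled PMA_ethanol and 6 labelled PMA_1002, the number that the series gives to an innate defense regulator peptide whose anti-inflammatory action was under study. The label PMA_1002 names no ethanol, so a change of vehicle and the peptide cannot be told apart. The sources used here do not give strain, dose, time or the handling of the control ears. Nothing in the labels ties a library to a separate animal, so the p-values below describe the spread between libraries, which may be partly technical.

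The endoplasmic reticulum (ER) folds proteins destined for membranes and for export. When unfolded proteins build up there, the sensors IRE1 (Ern1), ATF6 and PERK (Eif2ak3) start the unfolded protein response, which raises chaperones and degradation factors through the transcription factors XBP1 and ATF6 and slows protein synthesis through phosphorylation of eIF2. Kinases that sense amino acid shortage, viral RNA or heme deficiency phosphorylate eIF2 too, and the shared branch through ATF4, the integrated stress response, drives genes of amino acid synthesis, transport and tRNA charging. In skin, secreting cells such as fibroblasts and glands carry a high folding load, and leukocytes that enter inflamed tissue make secreted proteins as well.

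The DNA element through which ATF6 and XBP1 are known to act on many of these genes, the ER stress response element (ERSE), is shown here because it ties several members together by sequence. RefSeq promoter windows (GRCm38.p6, 250 bases before to 50 after a start) were found for 30 members, as 33 windows. The letters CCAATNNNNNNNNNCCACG were searched on both strands and matched in windows of 8 of the 30 members. Of all 27025 genes with a window 37 matched (0.137%), the 8 members among them, in 39 of 32851 windows (0.119%). The sites are printed in the orientation of the motif, 5′ to 3′, with the fixed letters in capitals and the strand they lie on. Hspa5 is printed with 5 flanking bases, because its GENCODE gene model begins before the RefSeq start and holds the site.
Hspa5 (chr2:34772020-34772048, plus strand): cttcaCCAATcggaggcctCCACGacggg
Calr (chr8:84847055-84847113, plus strand): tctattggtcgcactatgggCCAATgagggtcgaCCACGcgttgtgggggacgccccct
Canx (chr11:50325780-50325838, minus strand): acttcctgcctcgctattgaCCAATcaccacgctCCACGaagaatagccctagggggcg
Creld2 (chr15:88819500-88819558, minus strand): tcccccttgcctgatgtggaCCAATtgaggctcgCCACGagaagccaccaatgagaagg
Dnajc3 (chr14:118937807-118937865, plus strand): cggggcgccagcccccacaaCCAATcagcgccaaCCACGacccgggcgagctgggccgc
Hsp90b1 (chr10:86705513-86705571, plus strand): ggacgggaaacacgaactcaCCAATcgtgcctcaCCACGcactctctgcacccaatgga
Hsp90b1 (chr10:86705618-86705676, minus strand): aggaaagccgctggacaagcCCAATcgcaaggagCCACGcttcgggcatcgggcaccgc
Pdia6 (chr12:17266471-17266529, plus strand): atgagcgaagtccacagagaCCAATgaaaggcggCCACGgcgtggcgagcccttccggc
Syvn1 (chr19:6046512-6046570, plus strand): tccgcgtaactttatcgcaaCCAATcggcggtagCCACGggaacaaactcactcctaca
The site of Hspa5 lay 65 to 47 bases before the RefSeq start and that of Syvn1 44 to 26 bases before it. Calr had its site farther out, 162 to 144 bases before the start and on the strand opposite to the gene, and Hsp90b1 held a pair.

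A related form, ERSE-II, has the letters ATTGGNCCACG and was found in 12 windows (0.0365%), among them those of Dnajb11 and Herpud1. Its match in Dnajb11 lay 8 to 18 bases after the start.
Dnajb11 (chr16:22857843-22857871, plus strand): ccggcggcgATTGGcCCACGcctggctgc
Herpud1 (chr8:94386368-94386396, plus strand): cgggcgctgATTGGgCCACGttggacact
The third element, the composite site at which ATF4 and a C/EBP partner are known to bind, was searched by its core TGATGNAA. It occurred in 1304 windows (3.97%) and in 1219 genes (4.51%). Matches lay in the windows of 4 members, 3 of them amino acid and stress response genes, and the printed sites of the 3 elements did not overlap. These lines are shown for the same reason, with the core letters in capitals.
Asns (chr6:7693214-7693243, minus strand): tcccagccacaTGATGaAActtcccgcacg
Chac1 (chr2:119351038-119351067, minus strand): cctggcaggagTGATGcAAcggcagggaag
Herpud1 (chr8:94386306-94386335, minus strand): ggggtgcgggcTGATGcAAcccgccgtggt
Trib3 (chr2:152344028-152344057, plus strand): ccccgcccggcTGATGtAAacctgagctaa
Herpud1 thus held a match of both kinds. The letters TGACGTGG, a site that XBP1 and ATF6 also bind, occurred in 222 windows (0.676%) and in none of the 30 members. Each match is a description of letters in a window and no test of binding.

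Libraries held 2656680 to 28585995 reads in genes, and the shallowest was PMA_ethanol library 3. Levels are CPM, read counts scaled to a common library size with TMM factors, fold changes are log2 values from edgeR's two-sided quasi-likelihood test, and a gene was called at a Benjamini-Hochberg adjusted p under 0.05 over all 14991 genes. Summed levels of epidermal keratinocyte markers (6 of 6 detected) ran from 18759 to 24569.6 CPM in controls, and those of fibroblasts, cartilage and skeletal muscle were present in every library. Keratinocyte markers summed to 10932 to 14421 CPM with PMA_ethanol and 21320.2 to 24519.8 with PMA_1002. Of these 6, 4 were called lower and 1 higher with PMA_ethanol against control, and 3 higher and none lower with PMA_1002 against control. Krt10 made up much of the sum, with means of 13319 CPM in controls, 6210.4 with PMA_ethanol and 13149 with PMA_1002. Dsg3 went the other way, with means of 119.9, 561 and 375 CPM in the same order. The 7 neutrophil markers, of which 5 were measured and Cxcr1 was at 0 in controls, summed to 9.65 to 18.6 CPM in controls, 676 to 1151 with PMA_ethanol and 155 to 277 with PMA_1002. All 7 macrophage markers were detected and summed to 399 to 501, 746 to 945 and 539 to 651 CPM in the same order, but 2 were called higher and 2 lower with PMA_ethanol. Mrc1 made up much of that sum (mean 118 CPM in controls, 483 with PMA_ethanol and 263 with PMA_1002), while C1qa had means of 51.5, 31.3 and 42.5 CPM and Csf1r of 152, 156 and 144. Of 7 plasma cell markers 2 passed the filter, Prdm1 and Ighm, while the defining genes Jchain, Mzb1 and Tnfrsf17 had means of at most 0.375 CPM in any group. The part of these marker differences in the results below was not tested. Fewer cells of a type and less RNA per cell cannot be told apart in these bulk samples. Hair follicle keratins differed widely between libraries of the same group, with sums of 19.9 to 2127 CPM in controls, 2.49 to 2169 with PMA_ethanol and 1.02 to 702 with PMA_1002.

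The comparison of PMA_ethanol with control asked how these genes differed in the inflamed ears. The label of the controls names no ethanol, so PMA and ethanol cannot be told apart here. The chaperone Hspa5, its partner Hyou1, the sensors Ern1 and Atf6, the transcription factor Atf4 and the stress genes Sesn2 and Ppp1r15a rose by folds of 2.37 to 3.89. Psat1, an enzyme of serine synthesis, and Eif2ak3, the gene of the sensor PERK, fell. In all, 20 of 34 members were higher, 2 were lower and 12 did not pass, where 32.5% of all genes tested were higher and 35.9% lower (68.4% in either direction). In 18 members every PMA_ethanol library lay above every control and in 2 below, against 28.2% and 29.6% of all genes (57.8% in either direction). The median fold change of the members was 0.57, and that of all genes was -0.07 (quartiles -0.65 and 0.53). With upper-quartile scaling, which moved the median of all genes from -0.067 to -0.303 and the share of higher genes among the called ones from 47.5% to 33.6%, 16 members were higher and 5 lower, and no called member changed sign. With RLE scaling, where 50.1% of the called genes were higher, 24 members were higher and 2 lower. Ddit3, Canx, Dnajb9 and Dnajc3 passed as higher with RLE scaling (edgeR adjusted p from 0.0387 to 0.0445).

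The level of the members in the libraries is drawn below for 8 of them. Their reads together made up 0.379% to 0.402% of the reads in genes in controls, 0.468% to 0.636% with PMA_ethanol and 0.418% to 0.479% with PMA_1002.

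**Figure D1:**
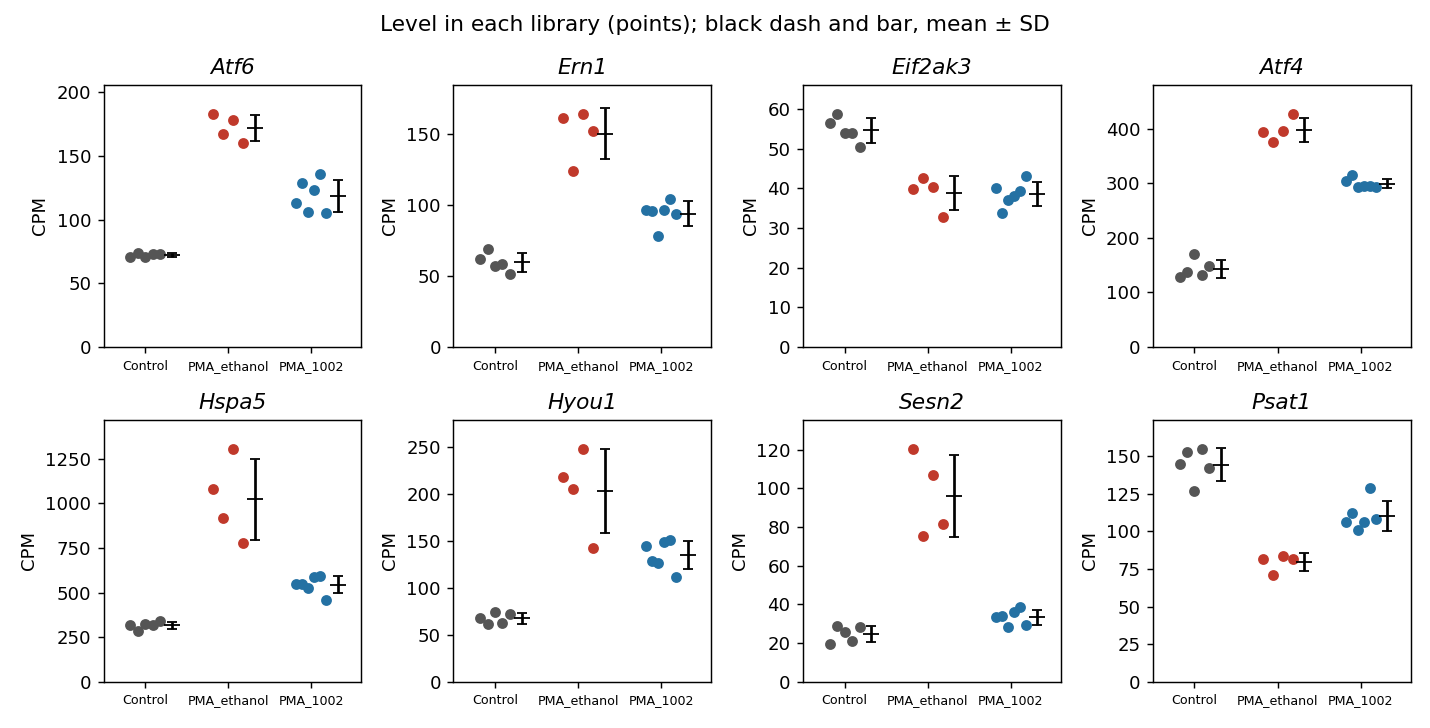
CPM (vertical axes, linear, from 0) of 8 members in 5 control, 4 PMA_ethanol and 6 PMA_1002 libraries; points are libraries, and black dashes with bars are mean ± SD. Atf6, Ern1, Atf4 and Hspa5 hold 3 separate bands, Eif2ak3 shows PMA_ethanol and PMA_1002 together below control, and Psat1 runs the other way.

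Of the sensors, Atf6 (ENSMUSG00000026663, chr1:170704674-170867771, minus strand) encodes a membrane protein that is cut in the Golgi to release a transcription factor. It had 70.9, 74.2, 70.7, 72.7 and 73.1 CPM in control libraries 1 to 5 and 183, 167, 178 and 160.1 in PMA_ethanol libraries 1 to 4, and ran from 105 to 136 CPM (median 118) with PMA_1002. The PMA_1002 values lay between the other groups and overlapped neither. The PMA_ethanol difference was 1.25 (edgeR adjusted p = 4.37e-10, SE 0.0787). Ern1 (ENSMUSG00000020715, chr11:106394650-106487852, minus strand), the kinase and RNase that splices Xbp1 mRNA, had 61.6, 69.2, 56.9, 58.4 and 51.2 CPM in controls, 161, 124, 164 and 152 with PMA_ethanol and values from 78 to 104 CPM (median 95.8) with PMA_1002. Its 3 groups were likewise apart, and it rose by 1.34 (edgeR adjusted p = 4.09e-09, SE 0.101). Eif2ak3 (ENSMUSG00000031668, chr6:70844515-70905245, plus strand), the eIF2 kinase of the ER, had 56.4, 58.7, 54, 53.8 and 50.3 CPM in controls, 39.8, 42.6, 40.2 and 32.8 with PMA_ethanol and values from 33.7 to 43 CPM (median 38.7) with PMA_1002. Both groups with PMA lay wholly below the controls and overlapped each other. The change with PMA_ethanol was -0.49 (edgeR adjusted p = 0.000128, SE 0.0905), and 8% of its exon bases overlap genes on the other strand. Coordinates here and below are on GRCm38, from GENCODE M21.

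Among the transcription factors, Atf4 (ENSMUSG00000042406, chr15:80255184-80257541, plus strand), the effector of the integrated stress response, had 129, 137, 169.9, 131 and 149 CPM in controls and 394, 375, 396 and 427 with PMA_ethanol. With PMA_1002 it ran from 293 to 316 CPM (median 295), apart from both other groups. It rose 2.78-fold, by 1.47 (edgeR adjusted p = 6.38e-11, SE 0.0794). Xbp1 (ENSMUSG00000020484, chr11:5520659-5525893, plus strand), whose mRNA is spliced by IRE1, had 154, 159.8, 211, 171 and 211 CPM in controls, 338, 379, 381 and 275 with PMA_ethanol and values from 212 to 247 CPM (median 236) with PMA_1002. The lowest PMA_1002 value was just above the highest control, and the rise with PMA_ethanol was 0.92 (edgeR adjusted p = 1.13e-06, SE 0.11). These counts add up all transcripts of Xbp1 and do not separate its spliced form. Atf5 (ENSMUSG00000038539, chr7:44812256-44816658, minus strand), a factor related to ATF4, had 78.2, 84.6, 94.3, 77.5 and 95.9 CPM in controls, 99.3, 113, 112 and 101 with PMA_ethanol and values from 79.6 to 110.3 CPM (median 85.9) with PMA_1002. The PMA_1002 libraries overlapped both other groups. Atf5 rose by 0.30 (edgeR adjusted p = 0.00963, SE 0.0945), a call lost with upper-quartile scaling (0.06, edgeR adjusted p = 0.57) and without scaling (0.07, edgeR adjusted p = 0.554), and 8.2% of its exon bases overlap genes on the other strand. Ddit3, the CHOP factor linked to cell death under lasting stress, was at 16.3 ± 0.972 CPM (SD, n = 5) and 19.3 ± 2.25 CPM (n = 4), a difference of 0.23 (95% interval -0.01 to 0.48, edgeR adjusted p = 0.084). Without PMA_ethanol library 2 it passed (0.32, edgeR adjusted p = 0.0244). Reads of Ddit3 are uncertain, since a second gene entry of that name covers 6.1% of its exon bases and genes on the other strand, Mars among them, cover 4.7%.

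Chaperones were the largest role. Hspa5 (ENSMUSG00000026864, chr2:34771970-34777547, plus strand), the ER Hsp70 also called BiP, had 320.5, 286, 323, 316 and 340.4 CPM in controls and 1084, 921, 1307 and 779 with PMA_ethanol. With PMA_1002 it ran from 459.6 to 592 CPM (median 549), again between the others without overlap. Its rise was 3.22-fold, 1.69 (edgeR adjusted p = 1.91e-09, SE 0.12). Hyou1 (ENSMUSG00000032115, chr9:44379490-44392369, plus strand), a large Hsp70 relative that exchanges the nucleotide of BiP, had 67.8, 61.1, 74, 62.7 and 71.7 CPM in controls, 218, 205, 248 and 142 with PMA_ethanol and values from 112 to 150.4 CPM (median 136) with PMA_1002. PMA_ethanol library 4 fell within the PMA_1002 range while the other 3 lay above it, and the difference from control was 1.58 (edgeR adjusted p = 1.06e-08, SE 0.129). Manf (ENSMUSG00000032575, chr9:106838312-106891979, minus strand), a small secreted ER protein, had 45.4, 41.9, 50.6, 46.5 and 47.4 CPM in controls, 119, 112, 123 and 74.5 with PMA_ethanol and values from 60.2 to 82.2 CPM (median 73.9) with PMA_1002. Library 4 of PMA_ethanol was again the one inside the PMA_1002 range, and Manf rose by 1.20 (edgeR adjusted p = 1.92e-07, SE 0.124). Its exons overlap genes on the other strand over 8.9% of their length.

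Of the other chaperones, Creld2, Calr, Dnajb11 and Hsp90b1 rose too, by 1.10, 0.78, 0.76 and 0.43 (edgeR adjusted p = 3.38e-06, 2.07e-05, 2.44e-06 and 0.00433). Calreticulin (Calr) holds newly made glycoproteins, Dnajb11 is a J-protein that feeds clients to BiP, and Hsp90b1 is the ER Hsp90. Control and PMA_ethanol overlapped for Hsp90b1, since PMA_ethanol library 4 had 291 CPM, and that call was lost with upper-quartile scaling (0.19, edgeR adjusted p = 0.148) and without scaling (0.20, edgeR adjusted p = 0.13). Other genes overlap 10.3% of the exon bases of Hsp90b1 on the other strand and 5.4% on its own strand. The remaining 4 did not pass. Canx, the membrane relative of calreticulin, differed by 0.24 (95% interval 0.00 to 0.48, edgeR adjusted p = 0.0738). Dnajb9, a J-protein that also binds IRE1, differed by 0.46 (95% interval 0.02 to 0.91, edgeR adjusted p = 0.0607). Dnajc3, an inhibitor of PERK and a cochaperone, differed by 0.18 (95% interval -0.02 to 0.38, edgeR adjusted p = 0.0963). Sdf2l1, a partner of ER J-proteins, differed by 0.43 (95% interval -0.01 to 0.86, edgeR adjusted p = 0.0761). Without PMA_ethanol library 4 all 4 passed, at 0.32, 0.58, 0.24 and 0.62 (edgeR adjusted p = 0.0207, 0.0288, 0.0438 and 0.00589). With that removal included, Dnajb9 passed without any 1 of 5 libraries, the others being control library 1, PMA_ethanol library 2 and PMA_1002 libraries 1 and 6 (0.49 to 0.58, edgeR adjusted p from 0.0288 to 0.0449). Canx also passed without PMA_1002 library 6 (0.27, edgeR adjusted p = 0.0334) and Dnajc3 without PMA_1002 library 1 (0.21, edgeR adjusted p = 0.0453).

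The 8 members with an ERSE match did not move by a like amount. Hspa5 rose most among them, Calr, Creld2, Hsp90b1, Pdia6 and Syvn1 rose by 0.43 to 1.10, and Canx and Dnajc3 did not pass. Hspa5 and Calr were abundant per length, at 75 and 134 CPM per kilobase of exon in controls and 242 and 231 with PMA_ethanol. Calr was thus the most abundant member per length in controls, and the PMA_ethanol values of the pair lay close together. The lowest members per length in controls were Chac1 and Trib3, at 4.77 and 5.79.

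Disulfide isomerases form and rearrange the disulfide bonds of client proteins. Pdia6 (ENSMUSG00000020571, chr12:17266545-17284770, plus strand) had 115, 115, 110.3, 120.2 and 116 CPM in controls, 216, 177, 224 and 164 with PMA_ethanol and values from 125 to 141 CPM (median 128) with PMA_1002. The groups were apart, and Pdia6 rose by 0.76 (edgeR adjusted p = 4.36e-07, SE 0.0838). Pdia3 (ENSMUSG00000027248, chr2:121413775-121438687, plus strand), which works with calnexin and calreticulin, had 372, 320.4, 342, 350.2 and 338 CPM in controls, 444, 394, 460 and 345 with PMA_ethanol and values from 329 to 421 CPM (median 380.3) with PMA_1002. All groups overlapped. The difference was 0.25 (edgeR adjusted p = 0.017, SE 0.088), a call lost with upper-quartile scaling (0.01, edgeR adjusted p = 0.883), without scaling (0.02, edgeR adjusted p = 0.841), without PMA_ethanol library 1 (0.21, edgeR adjusted p = 0.0585) and without library 3 (0.20, edgeR adjusted p = 0.0622). Pdia4 stood at 63.1 ± 1.75 CPM (SD, n = 5) and 63.6 ± 15.6 CPM (n = 4), a difference of 0.00 (95% interval -0.27 to 0.27, edgeR adjusted p = 0.999).

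Degradation genes carry misfolded proteins out of the ER to the proteasome. Edem1 (ENSMUSG00000030104, chr6:108828641-108859356, plus strand), a lectin-like factor that marks misfolded glycoproteins, had 77, 82.7, 90.3, 84.3 and 85.3 CPM in controls, 165, 138, 156 and 134 with PMA_ethanol and values from 120.3 to 139 CPM (median 126) with PMA_1002. PMA_ethanol overlapped PMA_1002 but not control, and Edem1 rose by 0.82 (edgeR adjusted p = 4.82e-08, SE 0.0754). Syvn1 (ENSMUSG00000024807, chr19:6046576-6053712, plus strand), the ubiquitin ligase HRD1, had 51.9, 64.4, 61.9, 53.3 and 50.2 CPM in controls, 93.8, 92.8, 101 and 73.4 with PMA_ethanol and values from 61.7 to 76.5 CPM (median 68.8) with PMA_1002. The PMA_1002 libraries reached into both other ranges, and the rise with PMA_ethanol was 0.67 (edgeR adjusted p = 1.32e-05, SE 0.1). Derl1 (ENSMUSG00000022365, chr15:57869502-57892448, minus strand), a channel component, had 75.1, 81.1, 82.6, 83.5 and 82.6 CPM in controls, 111, 91.3, 92.9 and 87.3 with PMA_ethanol and values from 72.8 to 96.7 CPM (median 79.3) with PMA_1002. The control and PMA_ethanol values were apart by a narrow margin. Its difference of 0.24 (edgeR adjusted p = 0.0207, SE 0.0869) was not called with upper-quartile scaling (0.00, edgeR adjusted p = 0.982), without scaling (0.01, edgeR adjusted p = 0.95), without PMA_ethanol library 1 (0.16, edgeR adjusted p = 0.112) or without control library 1 (0.21, edgeR adjusted p = 0.0515). The remaining 4 did not pass. Herpud1, a small ER membrane protein that supports degradation, differed by -0.18 (95% interval -0.36 to 0.00, edgeR adjusted p = 0.0735). It passed as lower with upper-quartile scaling (-0.42, edgeR adjusted p = 0.000375), without scaling (-0.41, edgeR adjusted p = 0.000382), without control library 5 (-0.21, edgeR adjusted p = 0.0487) and without PMA_ethanol library 3 (-0.26, edgeR adjusted p = 0.0101). Sel1l, the partner of HRD1, differed by -0.01 (95% interval -0.16 to 0.14, edgeR adjusted p = 0.916), and was called lower with upper-quartile scaling (-0.25, edgeR adjusted p = 0.00448) and without scaling (-0.24, edgeR adjusted p = 0.00517). Derl2, a relative of Derl1, and Sec61b, a subunit of the translocation channel, differed by 0.08 (95% interval -0.14 to 0.30, edgeR adjusted p = 0.524) and 0.19 (95% interval -0.19 to 0.58, edgeR adjusted p = 0.362).

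In the amino acid and stress response role, Sesn2 (ENSMUSG00000028893, chr4:132492032-132510501, minus strand), a leucine sensor that restrains mTORC1, changed most of all members. It had 19.3, 28.6, 25.5, 21.1 and 28.2 CPM in controls, 120.4, 75.3, 107 and 81.4 with PMA_ethanol and values from 28.1 to 38.7 CPM (median 33.7) with PMA_1002. The PMA_ethanol libraries stood far above the rest, and the PMA_1002 libraries overlapped the controls. The rise was 3.89-fold, 1.96 (edgeR adjusted p = 4.77e-09, SE 0.15). Ppp1r15a (ENSMUSG00000040435, chr7:45522916-45526268, minus strand), which directs a phosphatase to eIF2 and is also called GADD34, had 32.6, 29.1, 33.9, 27.3 and 32 CPM in controls, 100.3, 63.5, 71.4 and 85.5 with PMA_ethanol and values from 40.8 to 51.1 CPM (median 44.4) with PMA_1002. Its groups were apart, with a rise of 1.37 (edgeR adjusted p = 1.87e-08, SE 0.117). Psat1 (ENSMUSG00000024640, chr19:15904678-15947337, minus strand), a transaminase on the path from glycolysis to serine, had 145, 153, 127, 155 and 142 CPM in controls, 81.7, 70.9, 83.8 and 81.8 with PMA_ethanol and values from 101 to 129 CPM (median 107) with PMA_1002. Here the PMA_ethanol libraries were lowest, the PMA_1002 libraries were in between, and the highest of these reached into the control range. Psat1 fell 1.82-fold, by 0.86 (edgeR adjusted p = 9.23e-08, SE 0.0839). Asns, which makes asparagine and holds an ATF4-type site in its window, went from 33 ± 3.11 CPM (SD, n = 5) to 67.5 ± 6.29 CPM (n = 4), by 1.02 (edgeR adjusted p = 2.33e-07, SE 0.107). Trib3, a pseudokinase that binds ATF4, differed by -0.32 (95% interval -0.69 to 0.04, edgeR adjusted p = 0.108). Asns and Psat1, both enzymes of amino acid synthesis, thus changed in opposite directions. Trib3 was called lower with upper-quartile scaling (-0.56, edgeR adjusted p = 0.00942) and without scaling (-0.55, edgeR adjusted p = 0.00936).

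Chac1, a glutathione-degrading enzyme of the ATF4 branch, was the member with the widest spread between libraries and is shown in full after its values were seen. It had 3.47, 5.34, 16.1, 4.47 and 9.67 CPM in controls, 20.2, 26.7, 6.64 and 8.73 with PMA_ethanol and 14.3, 5.88, 5.59, 7.42, 5.4 and 7.12 with PMA_1002. Within each group the library with the most Chac1 also had the most hair follicle keratin mRNA, in sum 19.9, 81.1, 2127, 134 and 942 CPM in control libraries 1 to 5, 801, 2169, 2.49 and 148 in PMA_ethanol libraries 1 to 4 and 702, 4.56, 39.5, 347, 6.14 and 1.02 in PMA_1002 libraries 1 to 6. All 10 hair follicle markers were detected in each group. With PMA_ethanol the difference from control was 1.01 (95% interval -0.01 to 2.04, edgeR adjusted p = 0.0724). With the hair follicle level as a covariate it was 0.96 (edgeR adjusted p = 0.00178). It also passed with the skeletal muscle level as a covariate (0.88, edgeR adjusted p = 0.0135), with DESeq2 and limma voom, and without control library 3, PMA_ethanol library 3 or 4 or PMA_1002 library 1 (1.04 to 1.50, edgeR adjusted p from 0.00933 to 0.0488).

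**Figure D2:**
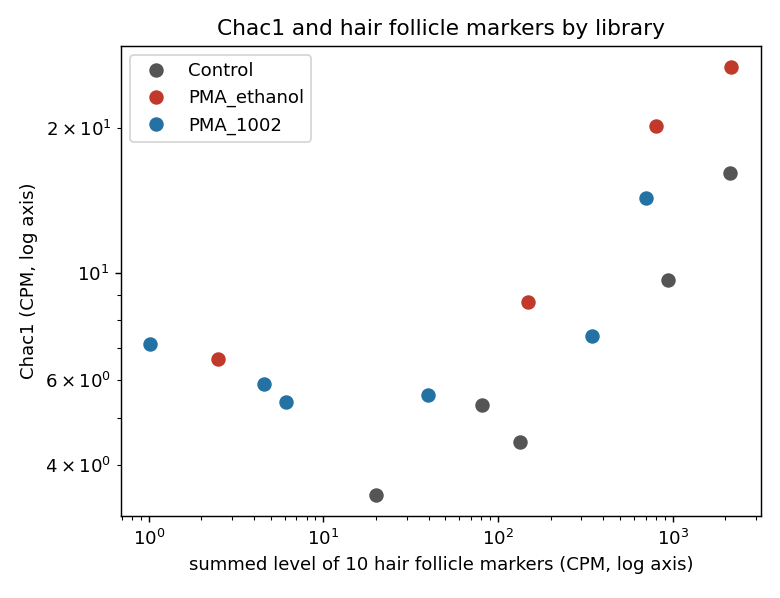
Chac1 (vertical, CPM, log axis) against the summed level of 10 hair follicle keratin genes (horizontal, CPM, log axis), 1 point per library, coloured by group. The highest Chac1 value of each group (16.1, 26.7 and 14.3 CPM) lies at that group's highest hair follicle sum, and PMA_ethanol library 3 (6.64 CPM) lies near the left edge.

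Libraries of PMA_ethanol differed from each other across the members. Library 3 was the highest of the 4 for 23 of 34 members (27.3% of all genes) and library 4 the lowest for 23 of 34 (24% of all genes). Library 3 also had the lowest depth, the lowest fibroblast marker sum (9749 CPM, against 20499 to 26165 in the other 3) and almost no hair follicle mRNA, and the part of these in its values was not tested. Without library 4, 27 members were called with PMA_ethanol, 25 higher and 2 lower, with a median of 0.69, and without library 3 the median was 0.47.

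**Figure D3:**
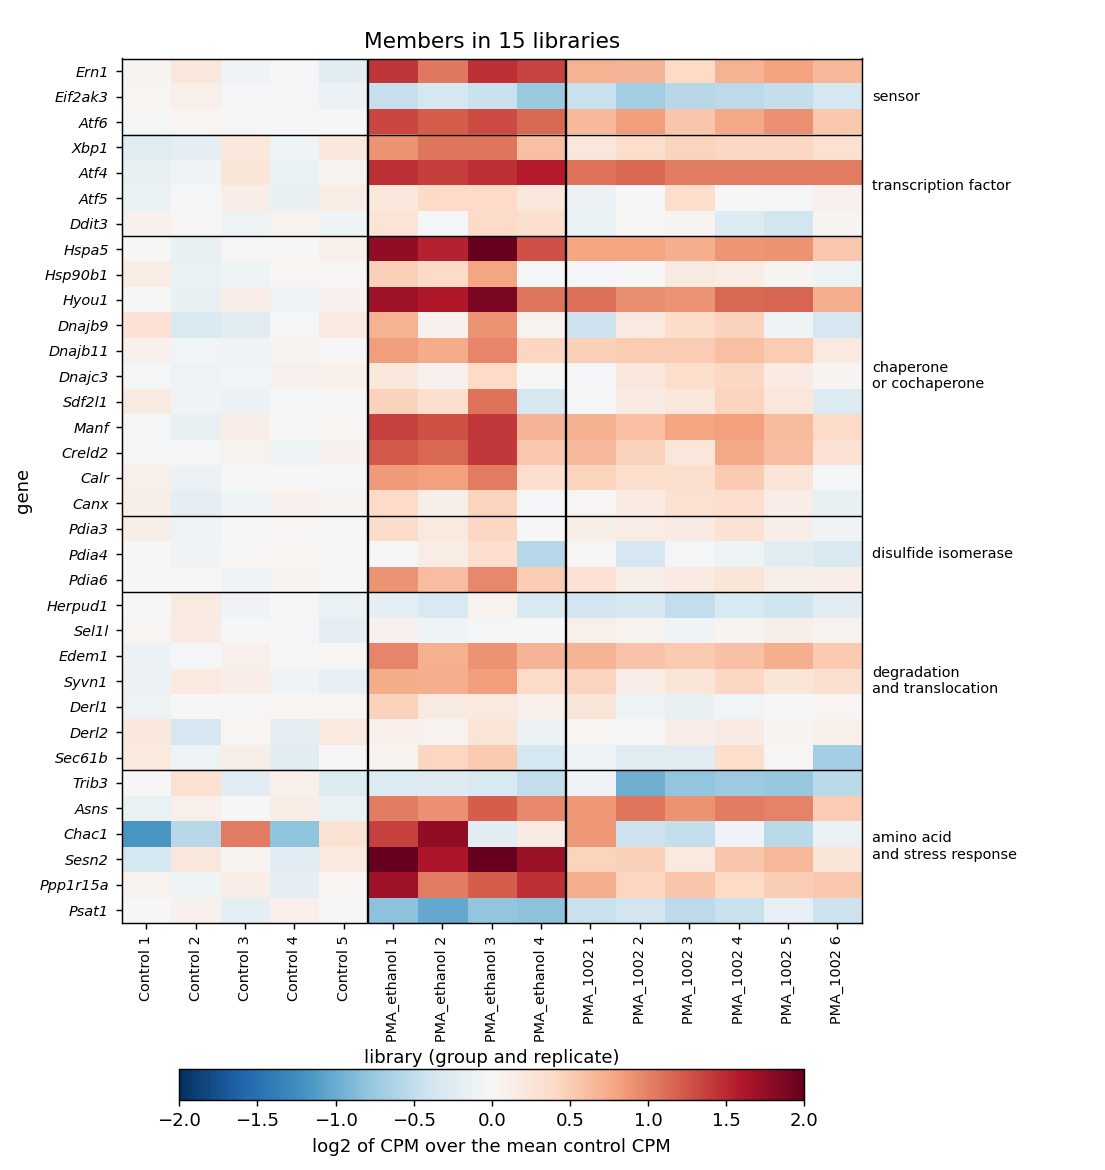
Level of the 34 members (rows, by role) in 15 libraries (columns, by group), as log2 of CPM over the mean control CPM, from -2 (blue) to 2 (red). PMA_ethanol library 3 is the reddest column for most chaperones and library 4 the palest, while Eif2ak3 and Psat1 are blue in all libraries with PMA.

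Genes of the same pathways outside the 34 were followed through 9 lists with 138 genes, of which 134 were tested. Aminoacyl-tRNA synthetases, which charge tRNAs and are known targets of ATF4, rose in 16 of 20 cases and fell in none, with Farsa at 1.08 (edgeR adjusted p = 6.32e-10, SE 0.0704), Nars at 1.03 (edgeR adjusted p = 5.56e-09, SE 0.0797) and Yars at 1.15 (edgeR adjusted p = 1.13e-08, SE 0.0941). With upper-quartile scaling 14 of the 20 were higher and none lower. Of 10 genes of eIF2 and its kinases, phosphatases and exchange factor, 7 rose and none fell (6 and 2 with upper-quartile scaling), with the phosphatase subunit Ppp1r15b at 1.19 (edgeR adjusted p = 9.1e-11, SE 0.0658), Eif2s1, the phosphorylated subunit, at 1.42 and Eif2b1 at 0.63. Amino acid transport had 6 of 10 higher and 3 lower. Its cystine carrier Slc7a11 went from 6.18 to 109.7 CPM, by 4.09 (edgeR adjusted p = 3.5e-08, SE 0.317), while Slc7a1, for cationic amino acids, and Slc3a2, the shared heavy chain, rose by 1.92 and 0.87.

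Serine, one-carbon and proline synthesis had 3 of 10 higher and 5 lower, beside 32.5% higher and 35.9% lower among all genes tested. The mitochondrial folate enzymes Mthfd2 and Mthfd1l rose by 1.97 (edgeR adjusted p = 1.17e-06, SE 0.233) and 1.12 (edgeR adjusted p = 2.61e-06, SE 0.144). Phgdh, the step before Psat1 on the serine path, fell by 0.82 (edgeR adjusted p = 6.04e-06, SE 0.113). Other ATF4 and stress targets had 6 of 11 higher and 4 lower, with the C/EBP factor Cebpb at 1.80 (edgeR adjusted p = 2.39e-11, SE 0.0901), the AP-1 family factor Jdp2 at 1.67 and Atf3, a stress-induced repressor, at 3.31 (edgeR adjusted p = 4.49e-06, SE 0.393). Of the other sensors and processing factors of the unfolded protein response, 6 of 12 rose and 1 fell (4 and 3 with upper-quartile scaling). The kinase Map3k5 and the adaptor Traf2, which act after IRE1, rose by 1.67 (edgeR adjusted p = 3.81e-09, SE 0.125) and 0.88 (edgeR adjusted p = 2.35e-08, SE 0.0762), and Nfe2l2, a factor of oxidative defense, by 1.11.

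Of the other ER machinery, the folding list had 7 of 20 enzymes higher and 3 lower, with the oxidase Ero1l at 1.06 (edgeR adjusted p = 1.45e-06, SE 0.129), Txndc11 at 0.59 and the J-protein Dnajc1 at 0.53, whereas upper-quartile scaling gave 4 higher and 9 lower. Other degradation genes had 8 of 17 higher and 2 lower (4 and 4 with upper-quartile scaling), with the ubiquitin conjugating enzyme Ube2j1 at 1.17 (edgeR adjusted p = 1.03e-08, SE 0.0951), Ubxn4 at 0.77 and Nploc4 at 0.72. Of 24 genes of translocation, signal peptide removal and glycosylation, 14 rose and 1 fell (10 and 3 with upper-quartile scaling), with the channel subunit Sec61a1 at 0.81 (edgeR adjusted p = 4.41e-07, SE 0.0894), the signal recognition particle receptor Srpr at 0.52 and Stt3a at 0.43. None of the called genes in the 9 lists changed sign under the other scalings. The lists were read beside the background of 32.5% higher and 35.9% lower, drawn as dashed lines. Counts with upper-quartile scaling have another background, since only 33.6% of the 10944 genes called with that scaling were higher.

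**Figure D4:**
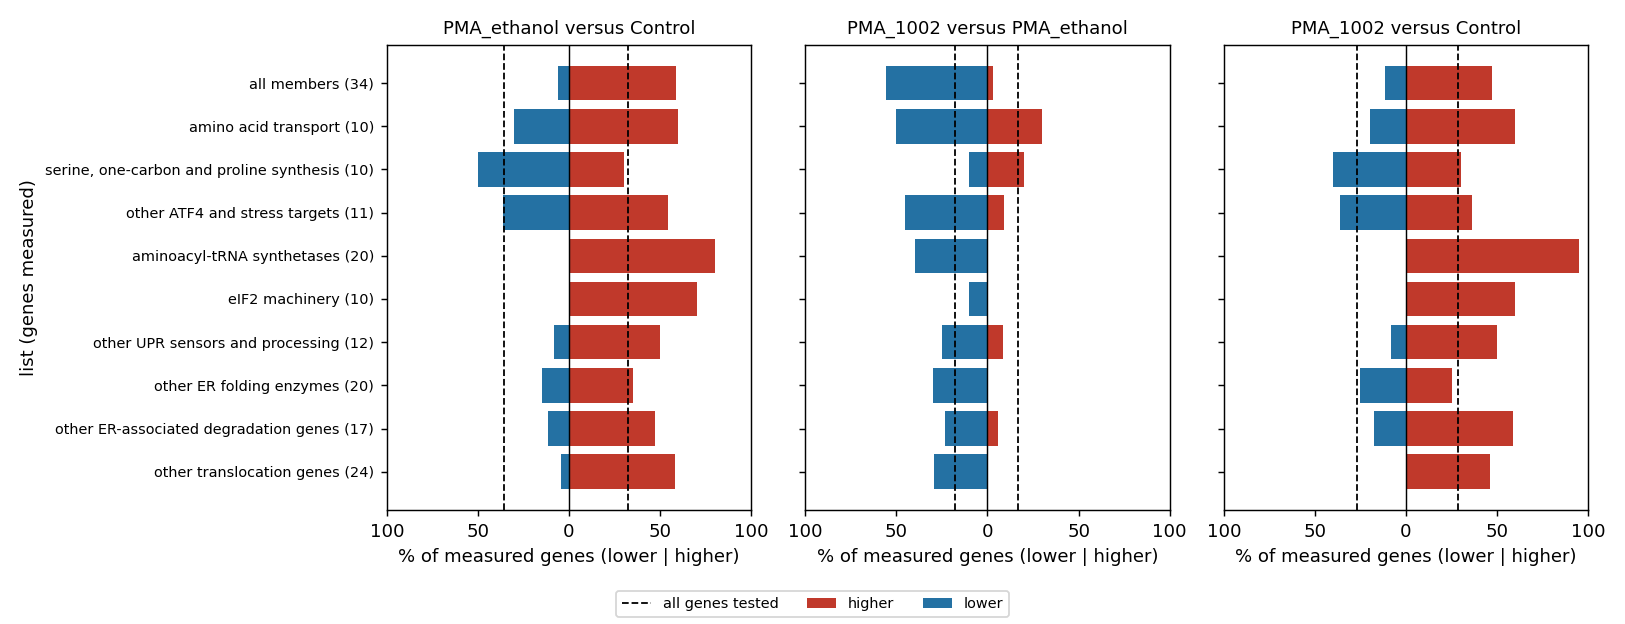
Share of measured genes called higher (right, red) or lower (left, blue) in each list, in percent, for the 3 comparisons, with the number measured in brackets and dashed lines for all genes tested. The tRNA synthetase bars point right in both comparisons with control (16 and 19 of 20) and left between PMA_1002 and PMA_ethanol (8 of 20).

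The comparison of PMA_1002 with PMA_ethanol asked how inflamed ears differed with the peptide. Sesn2, Hspa5 and Ppp1r15a were lower with PMA_1002 by folds of 2.86, 1.88 and 1.8, and Ern1, Atf6, Xbp1, Atf4 and Pdia6 were lower as well. Psat1 was higher, and Asns and Eif2ak3 did not pass. In all, 19 of 34 members were lower, 1 was higher and 14 did not pass, where 18% of all genes were lower and 17% higher (35% in either direction). PMA_1002 libraries lay wholly below those of PMA_ethanol in 8 members and above in 1, against 13% and 11% of all genes (24.1% in either direction). The median of the members was -0.32, and that of all genes 0.03. Upper-quartile scaling gave 14 lower and 1 higher and raised the share of higher genes among all called ones from 48.7% to 61.8%, and without scaling beyond total reads that share was 67.4%.

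Sesn2 had the largest of these differences. It fell by 1.52 (edgeR adjusted p = 5e-07, SE 0.139), with every PMA_1002 library below every PMA_ethanol library. Ppp1r15a fell by 0.85 (edgeR adjusted p = 1.66e-05, SE 0.11), also without overlap. Psat1 rose by 0.48 (edgeR adjusted p = 0.000196, SE 0.0807), again without overlap. Ern1 and Atf6 fell by 0.67 (edgeR adjusted p = 3.85e-05, SE 0.0947) and 0.53 (edgeR adjusted p = 3.66e-05, SE 0.0744). Eif2ak3 differed by -0.01 (95% interval -0.20 to 0.17, edgeR adjusted p = 0.937) and so stayed within a narrow interval around 0 while the other sensors fell. Among the transcription factors, Xbp1 fell by 0.56 (edgeR adjusted p = 0.000524, SE 0.105) and Atf4 by 0.41 (edgeR adjusted p = 0.000464, SE 0.0753), while Atf5 and Ddit3 fell by 0.25 and 0.33 (edgeR adjusted p = 0.0426 and 0.0272).

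Of the chaperones 7 of 11 were lower. Hspa5 fell by 0.91 (edgeR adjusted p = 1.06e-05, SE 0.113) and Hyou1 by 0.58 (edgeR adjusted p = 0.00126, SE 0.121). The others were Creld2 (-0.59, edgeR adjusted p = 0.00291), Manf (-0.54, edgeR adjusted p = 0.00169), Calr (-0.45, edgeR adjusted p = 0.00589), Hsp90b1 (-0.39, edgeR adjusted p = 0.016) and Dnajb11 (-0.28, edgeR adjusted p = 0.0244). Hspa5 libraries did not overlap, while for the other 6 called chaperones PMA_ethanol library 4 lay inside the PMA_1002 range. Canx, Dnajb9, Dnajc3 and Sdf2l1 differed by -0.09, -0.40, 0.03 and -0.28 (edgeR adjusted p = 0.542, 0.14, 0.834 and 0.281). Among the isomerases Pdia6 fell by 0.58 (edgeR adjusted p = 3.1e-05, SE 0.0799), without overlap, and Pdia3 and Pdia4 differed by -0.12 (95% interval -0.30 to 0.06, edgeR adjusted p = 0.291) and -0.16 (95% interval -0.42 to 0.10, edgeR adjusted p = 0.346). The 3 degradation genes called were Syvn1 at -0.37 (edgeR adjusted p = 0.00584, SE 0.0955), Derl1 at -0.24 (edgeR adjusted p = 0.036, SE 0.0833) and Edem1 at -0.21 (edgeR adjusted p = 0.0283, SE 0.072). Herpud1, Sel1l, Derl2 and Sec61b differed by -0.17, 0.07, 0.00 and -0.30 (edgeR adjusted p = 0.137, 0.442, 0.983 and 0.195). In the amino acid role Asns differed by -0.12 (95% interval -0.33 to 0.09, edgeR adjusted p = 0.389), Trib3 by -0.28 (95% interval -0.64 to 0.07, edgeR adjusted p = 0.203) and Chac1 by -1.09 (95% interval -2.07 to -0.12, edgeR adjusted p = 0.0773).

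Of the 20 calls, 6 rested on single libraries. Hsp90b1 was not called without PMA_ethanol library 3 (-0.25, edgeR adjusted p = 0.0861), and Dnajb11 was not called without PMA_ethanol library 1 or 3 (-0.25 and -0.21, edgeR adjusted p = 0.0764 and 0.1). Edem1 lost its call without PMA_ethanol library 1 or 3 or PMA_1002 library 3 or 6 (-0.20 to -0.16, edgeR adjusted p from 0.0524 to 0.132). Derl1 lost it without PMA_ethanol library 1 or 3 or any of PMA_1002 libraries 2 to 5 (-0.25 to -0.15, edgeR adjusted p from 0.0527 to 0.182). Atf5 lost it without PMA_ethanol library 2 or 3 or PMA_1002 library 1, 2, 4, 5 or 6 (-0.26 to -0.21, edgeR adjusted p from 0.0519 to 0.119). Ddit3 lost it without PMA_ethanol library 1, 3 or 4 or PMA_1002 library 4 or 5 (-0.32 to -0.28, edgeR adjusted p from 0.0527 to 0.074). With upper-quartile scaling Atf5, Ddit3, Dnajb11, Edem1 and Derl1 were not called either (-0.17, -0.25, -0.20, -0.13 and -0.16, edgeR adjusted p = 0.166, 0.0873, 0.0804, 0.13 and 0.152). Without scaling the same 5 and Hsp90b1 (-0.27, edgeR adjusted p = 0.0617) were not called, and Sel1l passed as higher (0.19, edgeR adjusted p = 0.0364). Conversely, Pdia4, Sdf2l1 and Sec61b passed as lower without PMA_ethanol library 4 (-0.31, -0.48 and -0.45, edgeR adjusted p = 0.0154, 0.0422 and 0.0474), and Trib3 without PMA_1002 library 1 (-0.43, edgeR adjusted p = 0.0287). Chac1 passed as lower without control library 3, PMA_ethanol library 3 or 4 or PMA_1002 library 1 (-1.40 to -1.09, edgeR adjusted p from 0.0279 to 0.0494). It also passed with DESeq2, with limma voom and with the skeletal muscle level as a covariate. With the hair follicle level as a covariate its difference was -0.37 (edgeR adjusted p = 0.303).

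**Figure D5:**
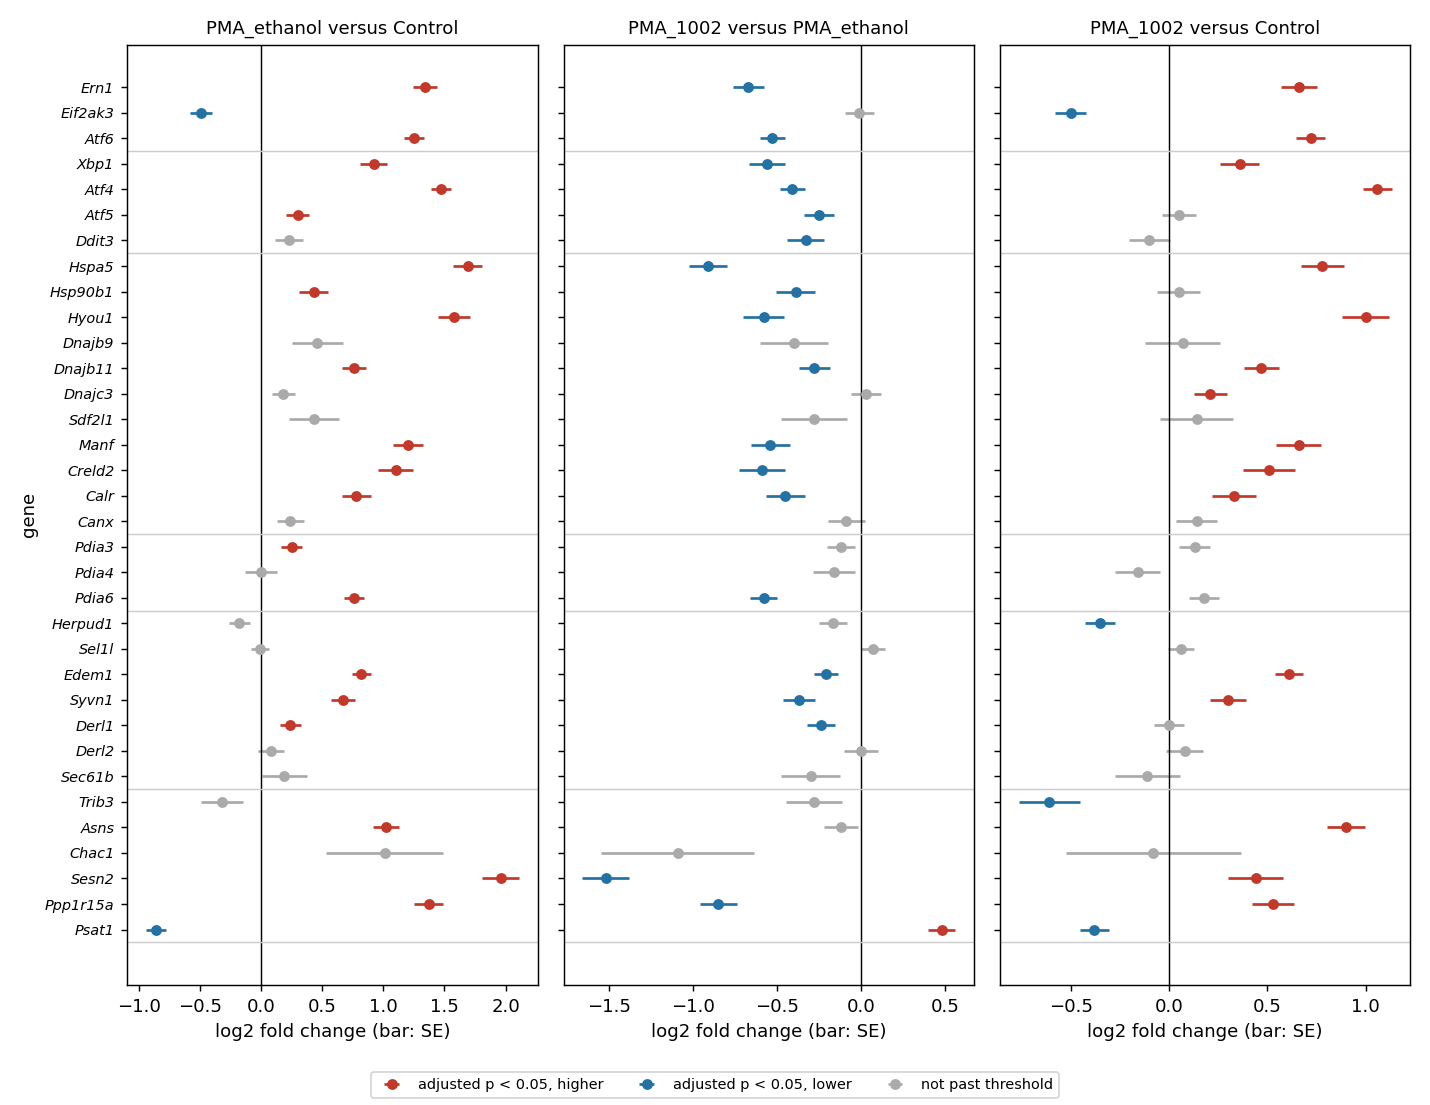
Log2 fold change of each member (rows, by role) in the 3 comparisons, with bars of 1 SE, red for called higher, blue for called lower and grey for not called. Red points on the left mostly face blue points in the middle panel, Psat1 is reversed, and Asns is grey there.

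Among the other lists the counts of lower genes were 5 of 10 for amino acid transport, 5 of 11 for other ATF4 and stress targets, 8 of 20 for tRNA synthetases and 1 of 10 for eIF2 factors, beside 18% of all genes lower and 17% higher. Slc7a11 fell from 109.7 to 38.2 CPM, by 1.51 (edgeR adjusted p = 0.000477, SE 0.262), Slc1a5, a glutamine carrier, by 0.44, and the glycine carrier Slc6a9 rose by 1.10 (edgeR adjusted p = 5.58e-05, SE 0.159), 1 of 3 transport genes that did. Jdp2 and Cebpb fell by 0.94 (edgeR adjusted p = 4.41e-05, SE 0.135) and 0.56. Ddit4, an inhibitor of mTORC1 like Sesn2, fell by 0.61 (edgeR adjusted p = 3.17e-06, SE 0.0668). Unlike Sesn2, its mean was below control in both groups with PMA (44.6 CPM in controls, 34 with PMA_ethanol and 22.3 with PMA_1002). The synthetases moved little, with Nars at -0.32 (edgeR adjusted p = 0.00324, SE 0.076), Farsa at -0.29 and Cars at -0.33. Of these, Farsa (-0.17, edgeR adjusted p = 0.0584) and Cars (-0.22, edgeR adjusted p = 0.0522) were not called without scaling beyond total reads, and 5 synthetases were lower and 1 higher with upper-quartile scaling. Ppp1r15b was the eIF2 factor that fell, by 0.43 (edgeR adjusted p = 4.68e-05, SE 0.0624). Phgdh rose by 0.41 (edgeR adjusted p = 0.00732, SE 0.109) beside Psat1, Aldh1l2 rose by 0.56 and Mthfd2 fell by 0.60, a call lost with upper-quartile scaling (-0.52, edgeR adjusted p = 0.0567).

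Of the remaining lists, 3 of 12 sensor and processing genes fell, led by Map3k5 at -0.72 (edgeR adjusted p = 0.000134, SE 0.116), and 1 rose (2 and 2 with upper-quartile scaling). Of 20 folding enzymes 6 fell and none rose (2 and 2 with upper-quartile scaling), with Ero1l at -0.60 (edgeR adjusted p = 0.00114, SE 0.122) and Nucb2 at -0.32. Of 17 degradation genes 4 fell and 1 rose (3 and 3 with upper-quartile scaling), with Ube2j1 at -0.51 (edgeR adjusted p = 0.000335, SE 0.0898). Of 24 translocation genes 7 fell and none rose (3 and 1 with upper-quartile scaling), with Sec61a1 at -0.41 (edgeR adjusted p = 0.00126, SE 0.0855). These counts too stand beside 18% of all genes lower and 17% higher. With upper-quartile scaling 61.8% of all called genes were higher.

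The comparison of PMA_1002 with control shows what difference remained. It shares its libraries with the 2 comparisons above, so the values are given side by side and not as separate evidence. Here 16 of 34 members were higher, 4 lower and 14 not called, where 28.4% of all genes were higher and 26.7% lower (55% in either direction). Libraries were apart and higher in 13 members and apart and lower in 2, against 20.2% and 16.5% of all genes (36.7% in either direction). The median of the members was 0.16, and that of all genes -0.03. Upper-quartile scaling gave 11 higher and 6 lower members, and moved the share of higher genes among all called ones from 51.5% to 34.6%.

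Atf4 and Hyou1 kept the largest differences from control, 1.06 (edgeR adjusted p = 3.86e-09, SE 0.0731) and 1.0 (edgeR adjusted p = 2.5e-06, SE 0.118). For Atf4 the 3 comparisons read 1.47, -0.41 and 1.06. Asns stood at 61.7 ± 8.07 CPM (SD, n = 6), 0.90 (edgeR adjusted p = 9.29e-07, SE 0.0981) above control. Hspa5 was 0.78 above control (edgeR adjusted p = 1.55e-05), against 1.69 with PMA_ethanol. Sesn2 was 0.44 (edgeR adjusted p = 0.0116, SE 0.138) above control with overlapping libraries, against 1.96. That call was lost with upper-quartile scaling (0.28, edgeR adjusted p = 0.075).

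By role, both sensors that had risen stayed above control, Atf6 at 0.72 (edgeR adjusted p = 3.77e-07, SE 0.0721) and Ern1 at 0.66 (edgeR adjusted p = 1.39e-05, SE 0.0922). Eif2ak3 stayed below, at -0.50 (edgeR adjusted p = 5.81e-05, SE 0.0803), close to its -0.49 with PMA_ethanol. Xbp1 was 0.36 (edgeR adjusted p = 0.0061, SE 0.1), a call lost with upper-quartile scaling (0.20, edgeR adjusted p = 0.0912) and without scaling (0.24, edgeR adjusted p = 0.0553), and Atf5 and Ddit3 were 0.05 and -0.10 (edgeR adjusted p = 0.63 and 0.435). Besides Hspa5 and Hyou1, the chaperones Manf, Creld2, Dnajb11, Calr and Dnajc3 were higher, by 0.66, 0.51, 0.47, 0.33 and 0.21 (edgeR adjusted p = 0.000123, 0.0036, 0.000245, 0.0177 and 0.0428). Calr was not called with upper-quartile scaling (0.17, edgeR adjusted p = 0.174) or without scaling (0.21, edgeR adjusted p = 0.091). Dnajc3 lost its call without control library 1, 2 or 3 or PMA_1002 library 2, 3, 4 or 5 (0.17 to 0.22, edgeR adjusted p from 0.0578 to 0.0975), with upper-quartile scaling (0.05, edgeR adjusted p = 0.595), without scaling (0.09, edgeR adjusted p = 0.335) and with the hair follicle covariate (0.20, edgeR adjusted p = 0.081). Ddit3 passed as lower with upper-quartile scaling (-0.26, edgeR adjusted p = 0.0447). Hsp90b1, Canx, Sdf2l1 and Dnajb9 differed by 0.05, 0.14, 0.14 and 0.07 (edgeR adjusted p = 0.74, 0.252, 0.54 and 0.788).

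The isomerases did not pass against control. Pdia6, at 0.18 (95% interval 0.02 to 0.34, edgeR adjusted p = 0.0536), had all PMA_1002 libraries above all controls, and it passed without any 1 of the PMA_ethanol libraries or without PMA_1002 library 6 (0.18 to 0.21, edgeR adjusted p from 0.0282 to 0.0491). Pdia3 differed by 0.13 (95% interval -0.04 to 0.30, edgeR adjusted p = 0.17), and passed without PMA_1002 library 6 (0.19, edgeR adjusted p = 0.0476). Pdia4 differed by -0.16 (95% interval -0.40 to 0.09, edgeR adjusted p = 0.26), and was called lower with upper-quartile scaling (-0.32, edgeR adjusted p = 0.0267) and without scaling (-0.28, edgeR adjusted p = 0.0483). Of the degradation genes Edem1 was 0.61 (edgeR adjusted p = 1.58e-06, SE 0.0689) above control and Syvn1 0.30 (edgeR adjusted p = 0.01, SE 0.0911), the latter not called with upper-quartile scaling (0.14, edgeR adjusted p = 0.189) or without scaling (0.18, edgeR adjusted p = 0.1). Herpud1 was lower by 0.35 (edgeR adjusted p = 0.00121, SE 0.0777), with its highest PMA_1002 library at 94.2 CPM and its lowest control at 99. Sel1l, Derl1, Derl2 and Sec61b differed by 0.06, 0.00, 0.08 and -0.11 (edgeR adjusted p = 0.423, 0.967, 0.479 and 0.59). Among the amino acid and stress genes Ppp1r15a was 0.53 (edgeR adjusted p = 0.000562, SE 0.107) above control and Psat1 lower by 0.38 (edgeR adjusted p = 0.00032, SE 0.0734). Trib3 was lower by 0.61 (edgeR adjusted p = 0.00324, SE 0.155), with overlapping libraries, and Chac1 differed by -0.08 (95% interval -1.04 to 0.88, edgeR adjusted p = 0.898). Herpud1, Trib3 and Dnajc3 were the members called in this comparison and in neither other. Of all genes, 1.69% were called only here as lower and 1.49% only here as higher. Herpud1 and Trib3 hold the ATF4-type core in their windows, as 4.51% of genes with a window do, and were lower. Asns and Chac1 hold it too, and Asns was higher while Chac1 did not pass.

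The combinations of calls over the 3 comparisons are described here without a test because the comparisons share libraries. In 14 members the gene was higher with PMA_ethanol, lower with PMA_1002 than with PMA_ethanol, and still higher than control with PMA_1002, a combination that 13.6% of all genes showed. In 4 more (Atf5, Hsp90b1, Pdia6 and Derl1) the last difference was not called, as in 3.32% of all genes. Psat1 showed the mirror image, as did 10.2% of all genes. Asns was the only member called higher in both comparisons with control and not between the groups with PMA, as were 12.4% of all genes. Eif2ak3 was the only member with that combination in the lower direction, which 14.3% of all genes showed. Another 8 members were called in no comparison, as were 26.2% of all genes.

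The other lists against control are read beside 28.4% of all genes higher and 26.7% lower. The tRNA synthetases stayed in front, with 19 of 20 higher and none lower, and 16 higher with upper-quartile scaling. Tars and Farsa were at 0.82 (edgeR adjusted p = 2.49e-07, SE 0.079) and 0.80 (edgeR adjusted p = 3.19e-08, SE 0.0645), and Nars at 0.71. Of 10 eIF2 factors 6 were higher and none lower (6 and 1 with upper-quartile scaling), with Eif2s1 at 1.14 (edgeR adjusted p = 2.43e-07, SE 0.11), Eif2b3 at 0.79 and Ppp1r15b at 0.75. Amino acid transport had 6 of 10 higher and 2 lower, with Slc7a11 at 2.58 (edgeR adjusted p = 5.34e-06, SE 0.296), Slc7a1 at 1.52 and the large neutral carrier Slc7a5 at 1.16. Serine, one-carbon and proline synthesis had 3 of 10 higher and 4 lower, with Mthfd2 at 1.38 (edgeR adjusted p = 5.59e-05, SE 0.216), Mthfd1l at 0.97 and Aldh18a1, of proline synthesis, at 0.69. Other ATF4 and stress targets were even, 4 of 11 in each direction, with Cebpb at 1.24 (edgeR adjusted p = 2.83e-09, SE 0.083), Atf3 at 2.25 and Ddit4 at -0.99 (edgeR adjusted p = 1.48e-09, SE 0.0626). Ddit4 was thus below control while Sesn2 was above it.

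Of the ER machinery against control, 6 of 12 other sensors and processing genes were higher and 1 lower (3 and 2 with upper-quartile scaling), with Map3k5 at 0.95 (edgeR adjusted p = 3.3e-06, SE 0.115), Nfe2l2 at 0.82 and Traf2 at 0.52. Of 20 folding enzymes 5 were higher and 5 lower (3 and 10), with Txndc11 and Dnajc1 at 0.37 and 0.37 and Fkbp2 at -0.40 (edgeR adjusted p = 0.00254, SE 0.0997). Degradation genes had 10 of 17 higher and 3 lower (3 and 5), with Ube2j1, Ubxn4 and Nploc4 at 0.66, 0.51 and 0.42. Translocation genes had 11 of 24 higher and none lower (2 and 2), with Sec61a1, Spcs3 and Srpr at 0.40, 0.35 and 0.25. The counts of these 4 lists depended on the scaling, and the eIF2 factors gained 1 lower call, while no synthetase was called lower against control under either. All genes stood at 28.4% higher and 26.7% lower, and with upper-quartile scaling 34.6% of the called ones were higher.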

How the data were processed

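Ear RNA from 15 libraries was prepared with polyA selection and a stranded kit, per the labels' protocols. The deposited values are whole-number counts of reads per gene; FastQC 0.11.5, MultiQC 0.8, STAR 2.5, HTSeq and the build GRCm38 are named in the submitters' processing notes. The sources used here give neither the strand option nor the annotation release of the counting, so reads in overlapping genes cannot be told apart. Reads not assigned to a single gene (28.5% to 32.85% of all counted) were left out. Among them were reads aligned to several positions (15.98% to 20.12%) and reads ambiguous between genes (0.911% to 1.014%). Genes kept by filterByExpr were fitted over all 15 libraries with edgeR 4.0.16 in R 4.3.3 (TMM, robust quasi-likelihood, common BCV 0.185, prior count 2 for log CPM), with Benjamini-Hochberg adjustment and a threshold of 0.05. DESeq2 1.42.0, limma 3.58.1 voom, other scalings, no filter, covariates, a replicate block and leaving out each library were alternatives. The 31 pairs of libraries within groups differed beyond sampling noise (chi-square per degree of freedom 2.93 to 27). Depth ran from 2656680 to 28585995 reads in genes. The fit was tested on simulated data.

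The members and lists were chosen with earlier results of these data known. Members shown by library were, in each role, up to 3 called with PMA_ethanol against control and up to 2 called with PMA_1002 against PMA_ethanol, by smallest adjusted p. Of each other list, up to 3 called genes per comparison were named in the same way. Promoter windows came from RefSeq and matched by symbol.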

Additional observations from a re-analysis of the deposited data

Results flagged for a closer look

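Of 102 sets made of 1 member in 1 group of libraries, 5 held a library far from the rest by Dixon's criterion, and chance alone gives about 1 in 20 sets. Dnajb11 had 85.9 CPM in PMA_1002 library 6, against 105 to 114 in the other PMA_1002 libraries. Sel1l had 169 CPM in PMA_1002 library 3, against 185 to 193. Derl1 had 75.1 CPM in control library 1, against 81.1 to 83.5 in the other controls. Chac1 had 14.3 CPM in PMA_1002 library 1, against 5.4 to 7.42. Psat1 had 70.9 CPM in PMA_ethanol library 2, against 81.7 to 83.8.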

How the results depend on the processing

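Over 25 alternatives, the 34 members gave 2550 values, of which 2369 kept direction and call, 79 lost the call, 63 gained it and 39 changed sign, none of the last from or to a called value. Of 62 called results 47 were called in every alternative. The number of members called ran from 20 to 27 with PMA_ethanol against control, 15 to 23 with PMA_1002 against PMA_ethanol and 17 to 22 with PMA_1002 against control. Leaving out 1 library at a time gave medians of 0.47 to 0.69, -0.41 to -0.25 and 0.14 to 0.22. The median with PMA_ethanol was 0.33 with upper-quartile scaling and 0.33 without scaling, that of PMA_1002 against PMA_ethanol was -0.21 without scaling, and that of PMA_1002 against control was 0.00 and 0.04. The cause was not tested.

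Sign changes were all of uncalled values. With PMA_ethanol, Sel1l was 0.03 with RLE scaling, 0.04 with DESeq2, 0.03 without the filter and -0.05 to 0.03 without single libraries. With upper-quartile scaling and without scaling, Dnajc3 was -0.06 and -0.05, Derl2 -0.16 and -0.15, and Sec61b -0.04 and -0.04. For PMA_1002 against PMA_ethanol, Dnajc3 was -0.01 with RLE scaling and -0.02 to 0.10 without single libraries, Eif2ak3 0.07 and 0.10 with the upper-quartile and no scaling and -0.09 to 0.04 without single libraries, and Canx 0.02 without scaling. Against control with upper-quartile scaling, PMA_1002 gave Atf5 -0.11, Hsp90b1 -0.11, Dnajb9 -0.09, Sdf2l1 -0.02, Canx -0.02, Pdia3 -0.03, Sel1l -0.10 and Derl2 -0.08, and without scaling Atf5 -0.07, Hsp90b1 -0.07, Dnajb9 -0.05, Sel1l -0.05 and Derl2 -0.04. Without single libraries Atf5 was -0.01 to 0.10, Dnajb9 -0.02 to 0.17 and Chac1 -0.36 to 0.40, and Chac1 was 0.60 with the hair follicle covariate.

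Libraries of different groups share numbers only: 2 of 13 same-number pairs had deviations correlated above 0.1 (range -0.533 to 0.579), and 1 of 15 libraries correlated best with its own number. With the number as a replicate block, 22, 15 and 20 members were called in the order above, with medians of 0.55, -0.29 and 0.21. The depth of PMA_ethanol library 3 limits the precision of that group.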
